A study of Homo sapiens with 9 samples.

Results

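The transcriptome described here is that of HCT116 cells, an established human colorectal cancer line, after transfection with a control siRNA. The study targeted EXOSC10-AS1, a long non-coding RNA, with siRNA 1 or siRNA 2 beside that control, in 3 libraries per group and 9 in all. The 3 control siRNA libraries were described on their own, over all 61806 gene identifiers of the count table, and no other group was used. All groups share the line, the lipid transfection and the batch entry of day 3, so the control carries the transfection too. The cells are 1 line in culture, and the labels do not say whether the libraries came from separate transfections, so SDs below cover the spread between these libraries, which may be technical.

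The control libraries held 60023174, 56757567 and 62054716 counts. Levels are given as CPM, the count scaled to the library's total. A gene was called present at 1 CPM or more in each of the 3 libraries, which is at least 57 to 62 counts, trace where it had any count but was not present, and not counted where all 3 libraries were at 0. A count of 0 allows up to 3 counts, or 0.0483 to 0.0529 CPM. Ratios between genes were taken as CPM per kilobase (kb) of the longest annotated transcript, since CPM also depends on transcript length. Ratios and orders per kb depend on the length used, and SDs between libraries do not cover that choice. EXOSC10-AS1 itself was at trace level, with 26, 4 and 14 counts in the control libraries. With the counting strand not given in the sources used here, reads from a gene and its antisense partner cannot be told apart. Reads of genes that share exons on the same strand may be counted under the other gene, so a count of 0 for them is less sure.

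The colon is lined by a simple epithelium that renews itself from stem cells at the crypt base under WNT signals. Its daughter cells become absorptive colonocytes, mucus-secreting goblet cells and hormone-secreting enteroendocrine cells. Simple epithelia carry the keratins KRT8, KRT18 and KRT19, and CDX1 and CDX2 are the homeobox factors that specify intestine along the gut. HCT116 is known as a mismatch-repair-deficient, poorly differentiated line with mutant CTNNB1.

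Of all identifiers, 14293 (23.1%) were present, 16915 were trace and 30598 were not counted. Among protein-coding genes 12440 of 19825 were present (62.7%), and among long non-coding RNA genes 982 of 14745 (6.66%). The gene lists below were chosen with earlier results of these data known, so a list's share beside the 62.7% describes the list only. Protein-coding genes held 89.4 ± 0.0677% of the counts (SD, n = 3), the mitochondrial genome 8.28 ± 0.0580%, pseudogenes 1.06 ± 0.00589% and long non-coding RNAs 1.05 ± 0.00313%. The libraries were concentrated on few genes. The 100 highest genes held 23.3 ± 0.0458% of the counts, and between 971 and 977 genes made up 50% of each library. Most present coding genes were of middle level, since 8000 of 12440 averaged 10 to 100 CPM and 63 averaged 1000 CPM or more. The median present coding gene stood at 8.84 CPM per kb.

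The list of the 20 highest genes by CPM was led by the mitochondrial transcript MT-CO1, a subunit of cytochrome c oxidase, with 16718, 16944 and 16992 CPM. The highest nuclear gene by CPM was the translation elongation factor EEF1A1 with 11318, 11256 and 11102 CPM. The glycolytic enzyme GAPDH had 7159, 7180 and 7337 CPM. Of the 20, 9 were mitochondrial and 11 nuclear. Of the nuclear genes 5 encode glycolytic enzymes, namely GAPDH, ENO1, PKM, ALDOA and LDHA. The other 6 were EEF1A1, the elongation factor EEF2, the actin ACTG1, the scaffold protein AKAP12, the hypoxia- and stress-responsive NDRG1 and the giant protocadherin FAT1.
Per kb, GAPDH was the highest coding gene at 3854 ± 51.8 CPM per kb, followed by EEF1A1 at 2528 ± 25.02, ACTG1 at 2042 ± 23.4 and ENO1 at 1894 ± 1.95 CPM per kb (SD, n = 3). These levels were separated by more than their SDs between libraries. The SDs do not cover the choice of length, and by CPM EEF1A1 was above GAPDH.

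The letters around the start sites of such genes are shown because 2 features were more frequent among genes of 1000 CPM or more than among those of 10 to 100 CPM. Windows of 300 bases, 250 before to 50 after the first listed start, were read from RefSeq on GRCh38.p14. Entries were found for 15427 of 19138 coding genes searched (80.6%), and for 10131 of the 12012 present ones (84.3%). Of genes that were not present 74.3% had an entry, and of those present at 1 to 10 CPM 79.2%. Which genes have an entry may shift the values of these sets, and that was not tested. The letters TATAAA between 45 and 21 bases before the start stood in 562 of all 15427 windows (3.64%) and in 149 of 10131 present genes (1.47%). At 10 to 100 CPM the share was 0.954%, at 100 to 1000 CPM 2.70%, and at 1000 CPM or more 12.2%, which is 6 of 49 genes. At 1 to 10 CPM the share was 1.93%, in trace genes 6.72% and in genes not counted 8.90%, with the limit on entries given above. The share over all windows was also above that of present genes. No rise with level over the whole range can thus be read from these shares. On the opposite strand the same letters stood in 0.700% of all windows, in 0.242% at 10 to 100 CPM and in 3 of the 49 (6.12%). The share on the opposite strand was thus also higher at 1000 CPM or more than at 10 to 100 CPM. The stretches before the starts of those 6 genes, and of 3 secreted factors described below that were chosen after their values were seen, follow with the matched letters in capitals.
EEF2 (chr19:3985464-3985508, minus strand): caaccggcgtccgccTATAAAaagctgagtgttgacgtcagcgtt
RPLP0 (chr12:120201112-120201156, minus strand): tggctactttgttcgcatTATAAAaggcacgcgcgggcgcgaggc
P4HB (chr17:81860536-81860580, minus strand): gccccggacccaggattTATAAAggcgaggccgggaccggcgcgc
ANXA2 (chr15:60397987-60398031, minus strand): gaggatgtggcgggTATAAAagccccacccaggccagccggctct
SLC2A1 (chr1:42958869-42958913, minus strand): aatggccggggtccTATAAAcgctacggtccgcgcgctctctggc
PPIA (chr7:44796636-44796680, plus strand): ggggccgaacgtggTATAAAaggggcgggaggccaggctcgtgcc
GDF15 (chr19:18386113-18386157, plus strand): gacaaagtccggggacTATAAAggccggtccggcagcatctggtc
EREG (chr4:74365100-74365144, plus strand): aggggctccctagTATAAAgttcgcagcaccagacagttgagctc
AREG (chr4:74445091-74445135, plus strand): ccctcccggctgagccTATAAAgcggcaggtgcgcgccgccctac

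A C followed by 4 letters that are each C or T, read on the gene's strand within 3 bases before to 7 bases after the start, stood in 1837 of all windows (11.9%). Its share was 12.2% at 10 to 100 CPM, 16.4% at 100 to 1000 CPM and 36.7% at 1000 CPM or more, which is 18 of 49 genes. Such a start is known from the mRNAs of the translation machinery, and of the ribosomal and elongation factor genes among the 49, EEF1A1, EEF2, RPLP0, RPL3, RPL13A, RPSA, RPL7A, RPS3 and RPS3A carried it, while RPL4, RPL13 and EEF1G did not. Of the glycolytic genes ALDOA carried it, and GAPDH, ENO1, PKM, LDHA, GPI, PGK1 and TPI1 did not. The remaining carriers among the 49 were HSP90AB1, HMGA1, P4HB, PTMA, TPT1, RACK1, TUBB and EIF4G2, so the letters were not confined to ribosomal and elongation factor genes. In the windows below capitals mark the 15 bases from the start onward.
EEF1A1 (chr6:73521018-73521047, minus strand): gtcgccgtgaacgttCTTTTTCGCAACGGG
EEF2 (chr19:3985449-3985478, minus strand): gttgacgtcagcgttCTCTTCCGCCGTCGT
RPLP0 (chr12:120201097-120201126, minus strand): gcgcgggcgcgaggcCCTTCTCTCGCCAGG
RPL3 (chr22:39319609-39319638, minus strand): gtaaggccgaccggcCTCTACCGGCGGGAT
GAPDH (chr12:6535249-6535278, plus strand): agcgggtgcatccctGTCCGGATGCTGCGC
ENO1 (chr1:8878672-8878701, minus strand): gcgggcggcgcggacAGTATCTGTGGGTAC
LDHA (chr11:18394548-18394577, plus strand): cgcgcccagctcagaGTGCTGCAGCCGCTG

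The dinucleotide CG numbered a median of 27 per window in present genes, 27 at 10 to 100 CPM and 29 at 1000 CPM or more. The median was 22 at 1 to 10 CPM, 9 in trace genes and 5 in genes not counted, with the limit on entries given above. Of genes with 0 to 4 CG in the window 18.8% were present, and of those with 40 to 99 CG 86.9%. Windows of 4 epithelial genes are shown next as single examples. The keratin KRT8, at 1948 CPM, and the differentiation keratin KRT20, at trace level, each had 2 in their windows. The window of CDX2 had 16 and that of the goblet-cell mucin MUC2, at trace level, 9. The 100 bases before each start follow with every CG in capitals. A match or its absence describes these windows only.
KRT8 (chr12:52926470-52926569, minus strand): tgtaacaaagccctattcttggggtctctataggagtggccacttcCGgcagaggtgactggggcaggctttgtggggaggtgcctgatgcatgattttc
KRT20 (chr17:40885243-40885342, minus strand): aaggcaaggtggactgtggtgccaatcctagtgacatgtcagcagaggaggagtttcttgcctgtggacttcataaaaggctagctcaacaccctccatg
CDX2 (chr13:27969316-27969415, minus strand): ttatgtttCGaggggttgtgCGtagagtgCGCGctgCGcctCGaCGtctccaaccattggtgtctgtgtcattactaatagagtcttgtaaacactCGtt
MUC2 (chr11:1074774-1074873, plus strand): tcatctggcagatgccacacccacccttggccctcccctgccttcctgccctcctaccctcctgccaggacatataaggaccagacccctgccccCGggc

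The labelled tissue was checked with 20 markers of colon epithelium, and 12 were present, 6 were trace and 2 were not counted. The share present is near the 62.7% of all coding genes, so the count alone does not set the list apart. The simple-epithelial keratins led the list. KRT19 had 1925, 1985 and 1923 CPM, KRT8 averaged 1948 ± 26.0 CPM and KRT18 732 ± 14.02 CPM (SD, n = 3). The adhesion molecule EPCAM had 156, 164 and 164 CPM, and the tight-junction claudin CLDN4 averaged 225 ± 1.12 CPM. E-cadherin (CDH1) was present at 83.6 ± 2.87 CPM, as were CLDN3, CLDN7, the splicing factor ESRP1 and the epithelial factor ELF3. General epithelial genes were thus high in every library.
Markers of intestine and of its differentiated cells were low. CDX2 had 11.6, 12.7 and 11.3 CPM. KRT20 had 0.417, 0.493 and 0.419 CPM, and per kb KRT19 was 5513 ± 420 times higher (SD, n = 3). GPA33, LGALS4, GPX2, CEACAM6 and the microvillus protein VIL1 stayed at trace level, at no more than 0.493 CPM in any library. The carcinoembryonic antigen gene CEACAM5 and the trefoil peptide TFF3 had no count in any library.

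**Figure D1:**
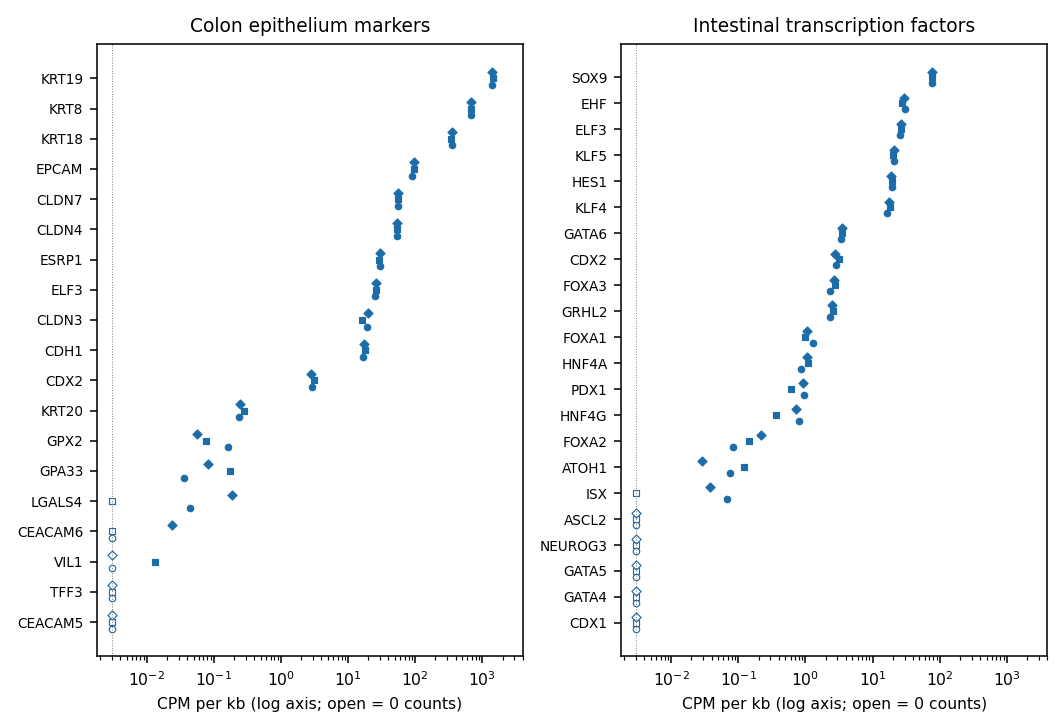
CPM per kb (log axis) of 19 colon epithelium markers and 22 intestinal transcription factors in each of the 3 control siRNA libraries (circle, square and diamond for libraries 1, 2 and 3). Open symbols on the dotted line are libraries with 0 counts. KRT19 and SOX9 lead the panels at 1399 and 76.2 CPM per kb on average, and CEACAM5, TFF3, CDX1, GATA4, GATA5, NEUROG3 and ASCL2 have 0 counts in all 3 libraries.

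Of 25 intestinal transcription factors 16 were present (64%, near the 62.7% of coding genes), 4 were trace and 5 were not counted. The progenitor factor SOX9 was the highest at 300, 301 and 299 CPM, or 76.2 ± 0.291 CPM per kb. Below it per kb came the epithelial ETS factors EHF at 29.2 ± 1.35 and ELF3 at 26.0 ± 0.454, then KLF5 at 20.4 ± 0.337 CPM per kb. The values of EHF and ELF3 per kb differed by more than their SDs, but their order depends on the length used. By CPM ELF3 was the higher, with 127, 130 and 132 CPM against 95.3, 87.1 and 93.2 CPM for EHF. CDX2 reached 0.0384 ± 0.00216 times the level of SOX9 per kb. HES1, the Notch effector that favours the absorptive fate, was present at 30.4 ± 0.833 CPM, and ATOH1, which directs the secretory fate, was trace at 0.167, 0.264 and 0.0645 CPM. KLF4, GATA6, FOXA3, GRHL2, FOXA1 and HNF4A were present between 3.19 and 49.0 CPM on average. Near the limit, the pancreatic and duodenal factor PDX1 had 2.38, 1.53 and 2.30 CPM and HNF4G 3.40, 1.52 and 3.05 CPM. FOXA2 and ISX were trace, and CDX1, GATA4, GATA5, NEUROG3 and ASCL2 were not counted. The factors of the foregut and small intestine GATA4 and GATA5 were thus at 0 beside GATA6 at 12.83, 13.02 and 13.10 CPM.

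Intestinal stem and progenitor markers were present in 14 of 18 (77.8%, beside 62.7% of coding genes), a share that describes the chosen list only. The hyaluronan receptor CD44 had 451, 470 and 467 CPM and the ubiquitin ligase RNF43, which removes WNT receptors, 191, 195 and 188 CPM. BMI1, ETS2, CDCA7, AXIN2, MSI1, PROM1, ZNRF3, EPHB2, EPHB3, LRIG1 and TNFRSF19 were present at 3.79 to 93.4 CPM on average. The crypt-base markers proper were the exception. LGR5, the receptor that defines crypt-base stem cells, had 0.300, 0 and 0.0645 CPM, and ASCL2, SMOC2 and OLFM4 had no count.
Markers of mature intestinal cells were nearly all at or near 0. Over the 4 lists of differentiated cells 7 of 52 genes were present (13.5%, beside 62.7% of coding genes), 25 were trace and 20 were not counted. Of 20 enterocyte genes only the peptidase DPP4 was present, at 12.6, 15.7 and 12.6 CPM. Of 10 goblet-cell genes only FCGBP was, at 5.18, 4.90 and 6.30 CPM. MUC2 averaged 0.223 ± 0.173 CPM, and AGR2, CLCA1 and ZG16 were not counted. Of 12 enteroendocrine genes SCG2 averaged 8.81 ± 0.434 CPM, PAX6 7.47 ± 1.11 CPM and SYP 1.40 ± 0.177 CPM, while INSM1, NEUROD1, NEUROG3, PAX4 and GCG were not counted. In the list of Paneth and tuft cells DCLK1 and AVIL were present, and DEFA5, DEFA6 and REG3A had no count.

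**Figure D2:**
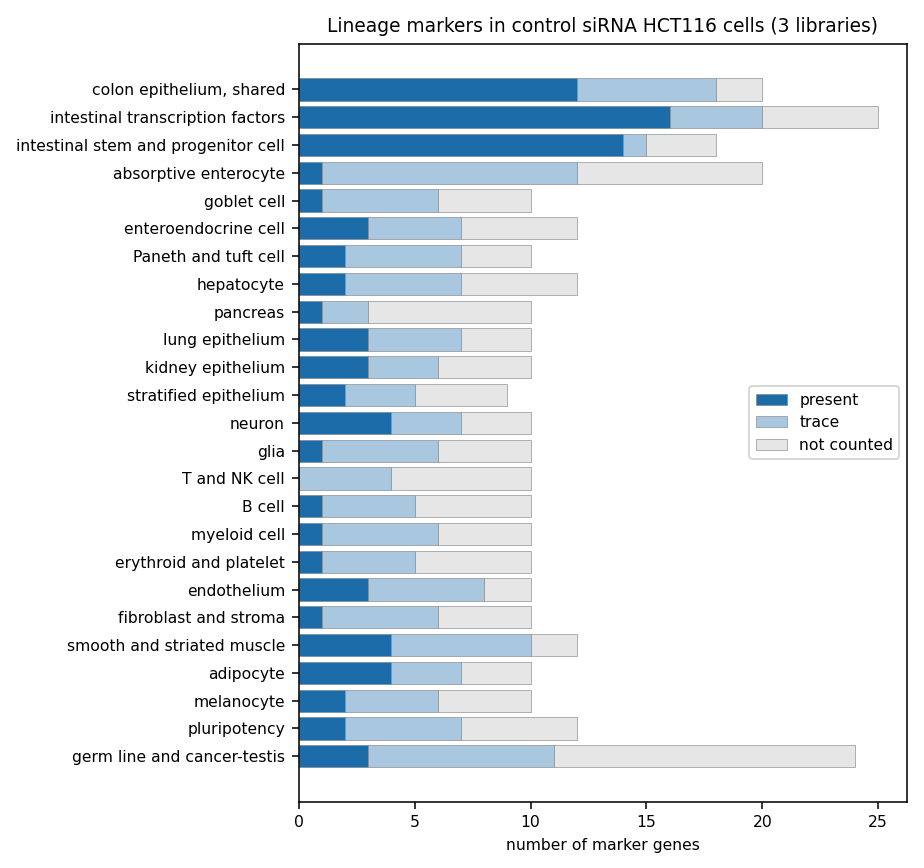
Number of marker genes in 25 lists that were present (1 CPM or more in each of 3 control siRNA libraries), trace (any count below that) or not counted (0 in all 3). The upper 3 lists have 12 of 20, 16 of 25 and 14 of 18 genes present, and the list of T and NK cells has none of 10.

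Markers of 18 other cell types, 198 genes in all, gave 38 present (19.2%, beside 62.7% of coding genes), 77 trace and 83 not counted. Of the 198, 15 averaged 10 CPM or more. Summed over each list, the levels stayed below 20 CPM per kb in 14 of the 18 lists, against 2730 ± 26.7 CPM per kb for the 20 genes of the colon epithelium list. Most of that sum came from KRT19, KRT8 and KRT18, at 1399, 681 and 350 CPM per kb, which are keratins of any simple epithelium. Stratified epithelium reached 179 ± 5.36 CPM per kb, of which the cell-cycle adaptor SFN made up most with 224, 217 and 231 CPM, while KRT5, KRT1, DSG3 and IVL were not counted. The list of neurons reached 98.9 ± 3.30 CPM per kb, of which the tubulin TUBB3 held most at 155, 166 and 163 CPM. The synaptic vesicle protein SYT1 had 65.7, 73.6 and 68.5 CPM and MAP2 averaged 18.95 ± 1.27 CPM, while GAP43, STMN2 and NEFM were at 0.
The germ-line list reached 79.3 ± 2.69 CPM per kb through the cancer-testis antigens MAGEA3 at 95.1, 102 and 104 CPM and PRAME at 56.96, 56.34 and 57.82 CPM. MAGEA6 was at 3.33 ± 0.137 CPM, but MAGEA3 and MAGEA6 are near-identical copies, so the division of counts between them is uncertain. The remaining 21 genes of that list were trace or not counted. Those not counted include MAGEA4, MAGEA10, CTAG2, DAZL and SYCP1. Adipocyte genes reached 43.6 ± 1.74 CPM per kb, chiefly by the complement factor CFD at 38.0 ± 1.53 CPM and PPARG at 17.7 ± 0.931 CPM, with ADIPOQ, LEP and LPL at 0.

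The cell types a culture could be mixed with left little signal. No T or NK cell gene was present, and CD3D, CD3E, CD3G, CD2, NKG7 and GZMB had no count. Of B cell genes CR2 was present at 8.36, 7.68 and 6.91 CPM, and MS4A1, PAX5, IGHM, IGKC and JCHAIN were not counted. The lysosomal protein CD68 was the only myeloid gene present, at 18.4, 21.5 and 15.5 CPM. Its exons overlap other genes on the other strand and on the same strand, so its counts are less sure. Fibroblast genes summed to 8.95 ± 0.154 CPM per kb, nearly all from the collagen COL1A1 at 60.2, 59.1 and 58.5 CPM. Its partner chain COL1A2 had 0, 0 and 0.209 CPM, and COL3A1, FAP, POSTN and PDGFRA were at 0. Endothelial ESAM averaged 9.78 ± 0.319 CPM, ENG 1.77 ± 0.274 CPM and VWF 1.16 ± 0.118 CPM, with CDH5 and EMCN at 0. The platelet integrin ITGA2B was the only present gene of the erythroid and platelet list, at 7.16 ± 0.319 CPM.
Hepatocyte genes were at 0 or trace except the urea-cycle enzyme CPS1 at 38.1, 36.6 and 39.6 CPM and the protease inhibitor SERPINA1 at 20.2, 23.1 and 22.9 CPM. ALB averaged 0.126 ± 0.0901 CPM. In the lists of other organs the present genes were PDX1 (pancreas), AGER, NKX2-1 and NAPSA (lung), PAX2, PAX8 and NPHS1 (kidney), MBP (glia), PMEL and MITF (melanocyte), and DES, ACTA2, TNNT2 and MYH11 (muscle). Except for MBP at 45.4 ± 2.69 CPM, each of these averaged under 10 CPM. RBFOX3 of the neurons, KRT10 of stratified epithelium, and LIPE and PLIN4 of adipocytes complete the present members. Of the pluripotency list, KLF4 and SALL4 were present, SALL4 near the limit at 2.40, 1.64 and 2.98 CPM, while NANOG, TDGF1 and PRDM14 were not counted and POU5F1 and SOX2 were trace.

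HOX genes, the homeobox genes that encode position along the body axis, differed by cluster. Of 11 HOXA genes 10 were present, of 10 HOXB genes 9, of 9 HOXC genes 6 and of 9 HOXD genes 1. The share of all coding genes was 62.7%. Summed per kb the HOXB cluster stood highest at 123 ± 0.292 CPM per kb, with HOXA at 64.2 ± 2.23, HOXC at 12.8 ± 0.456 and HOXD at 3.65 ± 0.434 CPM per kb. The 4 sums were separated by more than their SDs. HOXB6 had 53.9, 56.2 and 52.4 CPM, HOXA9 56.1, 53.3 and 51.8 CPM, and HOXB9 43.6, 43.7 and 46.7 CPM. Per kb HOXB6 at 27.6 ± 0.975 and HOXA9 at 26.1 ± 1.05 CPM per kb overlapped between libraries.
The posterior genes HOXA13 and HOXB13, which mark the hindgut, averaged 15.8 ± 0.971 and 16.0 ± 2.03 CPM, and HOXC13 averaged 6.31 ± 0.426 CPM. HOXD13 had 0, 0.141 and 0.193 CPM. HOXD8 was the present HOXD gene at 5.53, 5.88 and 5.01 CPM. HOXB1 had no count, and HOXA2, HOXC4, HOXC11 and HOXC12 were trace. Exons of 9 of the 10 present HOXA genes overlap a gene on the other strand, so antisense transcripts may share their counts.

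**Figure D3:**
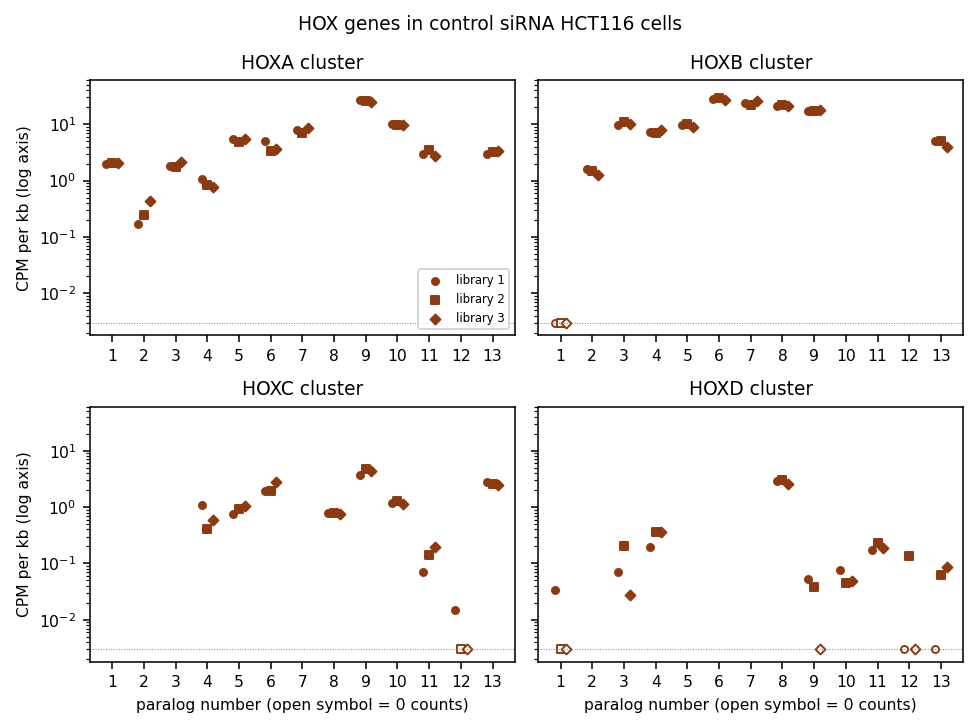
CPM per kb (log axis) of 39 HOX genes against paralog number in each of the 3 control siRNA libraries, with 1 panel per cluster. Open symbols on the dotted line are libraries with 0 counts. HOXB3 to HOXB9 lie between 7.47 and 27.6 CPM per kb on average, whereas in the HOXD cluster HOXD8 alone exceeds 1 CPM per kb.

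Of 19 SOX factors 7 were present (36.8%, beside 62.7% of coding genes). SOX9 was followed per kb by SOX4 at 18.2 ± 0.173 and SOX13 at 12.4 ± 0.835 CPM per kb. SOX12 at 12.1 ± 0.136 lay within the SD of SOX13. SOX1, SOX3, SOX11, SOX17 and SOX21 were not counted. Of 17 Krüppel-like factors 15 were present (88.2%, beside 62.7% of coding genes), a share that describes the list only. KLF10, a TGF-beta-inducible member, was highest at 41.4 ± 0.882 CPM per kb, with KLF6 at 27.5 ± 1.08 and KLF5 at 20.4 ± 0.337 CPM per kb. KLF5, of proliferating crypt cells, stood 1.17 ± 0.0698 times as high as KLF4, of differentiated ones. The erythroid factor KLF1 had no count.

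All 40 genes of a list of colorectal cancer drivers were present, beside 62.7% of coding genes. The list was chosen with earlier results of these data known, so this share describes the list only. The G protein GNAS led with 742, 743 and 745 CPM, or 184 ± 0.365 CPM per kb, and then B2M, the light chain of MHC class I, with 127 ± 2.46 CPM per kb. Next per kb came SOX9 and beta-catenin (CTNNB1), which had 368, 371 and 367 CPM. MYC had 145, 150 and 141 CPM. Among tumour suppressors SMAD4 had 91.4, 88.2 and 92.9 CPM and APC 44.4, 44.5 and 43.7 CPM. The receptor TGFBR2 averaged 56.98 ± 1.23 CPM. The lowest driver was AMER1, a WNT regulator on the X chromosome, at 0.808 ± 0.0856 CPM per kb, where the median of the list was 13.3 CPM per kb. Counts say nothing of the sequence or of the protein made.
Of the small GTPases HRAS had 30.6 ± 0.794 and NRAS 25.7 ± 0.482 CPM per kb, which differed by more than their SDs. In the wider list of MYC, RAS, RAF, PI3K and AKT genes 17 of 19 were present (89.5%, beside 62.7% of coding genes). MYC was 20.8 ± 2.41 times MYCL per kb, and MYCN and the leukocyte kinase PIK3CG had no count. The kinases AKT1 and AKT2 did not differ beyond their SDs at 21.9 ± 0.507 and 21.9 ± 0.124 CPM per kb.

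The 8 mismatch-repair genes were all present, beside 62.7% of coding genes, but not at like levels. MSH6 had 72.8, 70.7 and 71.0 CPM. MSH3, which acts in the repair of larger loops, had 3.48, 3.58 and 3.72 CPM and was the lowest of the 8 per kb in every library. Per kb MSH6 was 10.9 ± 0.504 times MSH3. PMS2, EXO1, MSH6 and PMS1 lay close together at 9.23 to 10.7 CPM per kb, PMS1 with an SD of 0.879.

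Of cell-cycle brakes all 10 were present, beside 62.7% of coding genes. The CDK inhibitor CDKN1A had 768, 758 and 782 CPM and was 17.3 ± 0.983 times CDKN1B per kb. CDKN2A, the locus of p16 and ARF, had 40.001, 36.24 and 39.64 CPM, and RB1 82.97, 78.51 and 75.01 CPM. The stress cytokine GDF15 had 678, 663 and 676 CPM, or 560 ± 6.93 CPM per kb, which was 1.65 ± 0.0172 times CDKN1A. The ubiquitin ligase MDM2 had 247.1, 242.5 and 241.7 CPM. BAX, RRM2B, SESN1, SESN2, FAS, BBC3, ZMAT3 and MDM4 were present at 18.3 to 183 CPM on average. TP73 averaged 30.7 ± 2.29 CPM. The TATAAA letters before GDF15 are shown above.

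Receptor tyrosine kinases numbered 35 present among 58, with 15 trace and 8 not counted, which is 60.3% beside 62.7% of coding genes. The ephrin receptor EPHA2 had 332, 343 and 356 CPM and the collagen receptor DDR1 329, 335 and 338 CPM. Per kb they stood at 86.6 ± 3.05 and 80.6 ± 1.09, above MET at 41.2 ± 1.34 and PTK7 at 36.2 ± 1.36 CPM per kb. EGFR, which is a drug target in colorectal cancer, had 199, 208 and 203 CPM, and EPHA2 was 4.19 ± 0.145 times EGFR per kb. KIT, FLT1, PDGFRA, MUSK, ROS1, EPHA3, EPHA5 and EPHA6 had no count. KIT was at 0 while its ligand KITLG had 562, 571 and 552 CPM.
Ligands of the EGF family were present in 9 of 11 (81.8%, beside 62.7% of coding genes). Epiregulin (EREG) had 560, 557 and 548 CPM, amphiregulin (AREG) 296, 296 and 289 CPM and TGFA 151, 148 and 146 CPM. Per kb AREG stood 1.97 ± 0.00854 times above EREG, the order reversed from CPM because its transcript is shorter. EREG was 352 ± 77.7 times the level of EGF itself per kb, and EGF had 1.37, 2.11 and 1.68 CPM. NRG3 had no count. AREG and EREG are the pair whose TATAAA windows are printed above.
Of 30 other growth factors 19 were present (63.3%, near the 62.7% of coding genes). GDF15 and KITLG led, then the bone morphogenetic protein BMP4 at 108, 106 and 108 CPM and GAS6, the ligand of AXL, at 100.7, 101.4 and 105.3 CPM. HGF, the ligand of MET, had no count, nor did INS, PDGFD or FGF20.

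Of 19 WNT ligands 13 were present (68.4%, beside 62.7% of coding genes). WNT16 had 64.9, 69.0 and 64.5 CPM and led with 21.03 ± 0.790 CPM per kb, above WNT7B at 7.03 ± 0.0554, WNT9A at 6.56 ± 0.360 and WNT6 at 5.95 ± 0.269 CPM per kb. WNT8A was at 0. Of 12 frizzled and LRP receptors 10 were present (83.3%), led by LRP5 at 22.6 ± 0.180 and FZD6 at 21.1 ± 0.972 CPM per kb. FZD6 was 2.35 ± 0.137 times FZD7. Of 14 secreted or intracellular WNT antagonists 5 were present (35.7%, beside 62.7% of coding genes). DKK1 had 64.7, 62.4 and 62.8 CPM, and NKD1, NKD2, NOTUM and FRZB were the others. SFRP1, SFRP2, SFRP4, SFRP5, DKK2, WIF1 and APCDD1 had no count in any library. FRZB, a relative of the SFRP genes, was at 0.664 CPM per kb.
Telomerase genes were present in 7 of 8 (87.5%, beside 62.7% of coding genes). The catalytic subunit TERT had 7.48, 6.87 and 8.27 CPM, and was 0.0717 ± 0.00793 times the accessory protein DKC1 per kb. The RNA template TERC had 0, 0.0352 and 0.129 CPM, which lies at the level of the other small structural RNAs below and does not measure the template in the cells.

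Of 48 nuclear receptors 30 were present, 12 trace and 6 not counted (62.5% present, beside 62.7% of coding genes). The orphan receptor NR2F2 was highest at 242, 249 and 248 CPM, or 46.7 ± 0.672 CPM per kb, followed by the clock repressor NR1D1 at 27.7 ± 0.611 and NR2F6 at 26.5 ± 0.110 CPM per kb. PPARD, at 88.35, 90.03 and 89.11 CPM, was 2.72 ± 0.118 times PPARG per kb. The bile acid receptor NR1H4 and the progesterone receptor PGR had no count, nor had RORB, RXRG, ESRRG and NR0B1.
Antigen presentation genes were present in 23 of 26 (88.5%, beside 62.7% of coding genes). HLA-C had 335, 339 and 338 CPM and B2M 305, 301 and 312 CPM. HLA genes are polymorphic and alike, so their counts depend on the mapping.
Of 20 genes tied to the response to chemotherapy 19 were present (95%, beside 62.7% of coding genes). The glutathione transferase GSTP1 led at 173 ± 3.90 CPM per kb, with BCL2L1, an inhibitor of apoptosis, at 136 ± 0.904 CPM per kb. TOP1, the target of irinotecan, had 327, 341 and 329 CPM and was 2.85 ± 0.0948 times TOP2A per kb. TYMS, the target of fluorouracil, had 123, 115 and 125 CPM and was 123 ± 21.6 times DPYD, the enzyme that degrades that drug, which had 2.87, 2.85 and 2.24 CPM (chosen after its values were seen).

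In metabolism, 1 member usually carried most of an isoenzyme family. Over 19 families the leading member held a median of 89.1% of the family's summed CPM per kb. The 19 include transporters, actins, tubulins and elongation factor 1 alpha besides enzymes. In glycolysis the leaders were GAPDH and PGAM1 with their partners at trace level, PGK1 and PKM with PGK2 and PKLR at 0, ENO1 at 90.7 ± 0.0343%, ALDOA at 87.4 ± 0.424% and PFKP at 74.0 ± 0.656% (SD, n = 3). PKLR is the liver and red cell pyruvate kinase. LDHA, with 3030, 2989 and 3002 CPM, held 70.6 ± 0.210% beside LDHB at 29.4 ± 0.210%, a ratio of 2.40 ± 0.0242.
Among the glycolytic families hexokinase had the lowest leading share, with HK1 at 53.003 ± 0.856% and HK2 at 45.9 ± 0.849%. HK2 was the higher by CPM, with 307, 316 and 305 CPM against 247.3, 242.8 and 251.4 CPM for HK1, and also with the union of all exons as length, so their order per kb depends on the length used. The glucose transporter SLC2A1 had 1547, 1562 and 1578 CPM and held 89.1 ± 0.278% of 14 transporters, with SLC2A3 second at 5.64 ± 0.0450%. The liver transporter SLC2A2 had no count. The lactate exporter SLC16A3 had 1034, 1010 and 1052 CPM and was 7.52 ± 0.210 times SLC16A1 per kb. The SLC2A1 window with TATAAA is printed above.

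**Figure D4:**
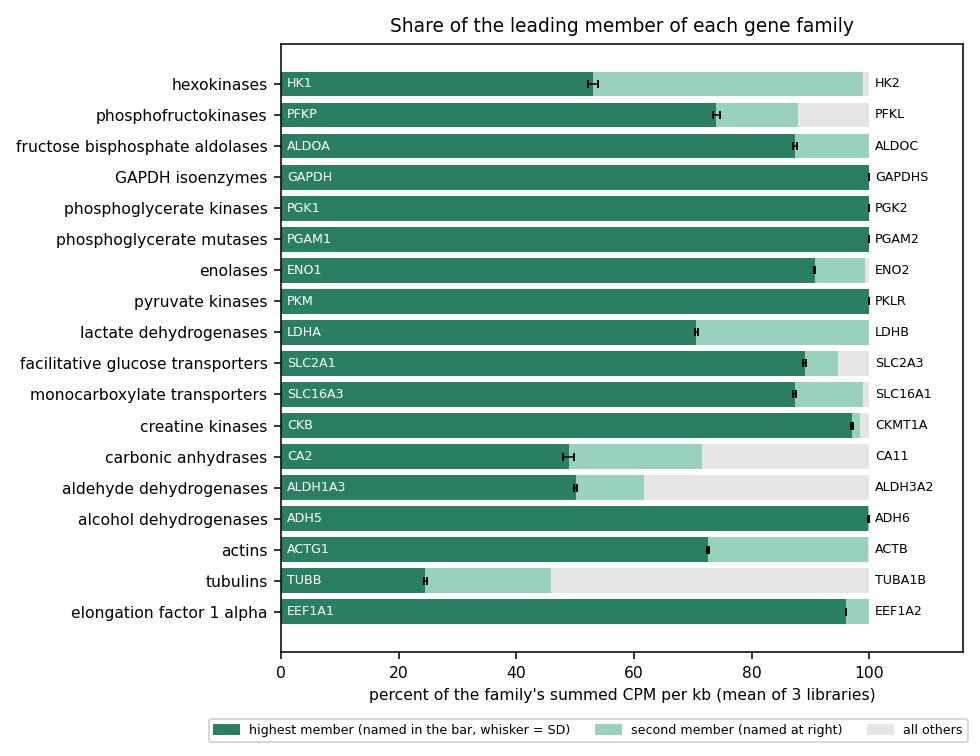
Percent of each family's summed CPM per kb held by its highest member (dark, with the SD over 3 control siRNA libraries), its second member (light) and all others (grey), for 18 of the 19 families. The highest member holds 24.5% of the tubulins (TUBB) and 100% of the pyruvate kinases (PKM), with a median of 89.1% over all 19 families.

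Brain-type creatine kinase CKB held 97.0 ± 0.152% of its family at 381, 385 and 393 CPM, and its mitochondrial partners CKMT1A and CKMT1B are near-identical copies whose split is uncertain. Among carbonic anhydrases CA2 led with 48.9 ± 0.970% and CA11 was second at 22.6 ± 1.05%, while CA1, a colonocyte enzyme, had no count. Of 19 aldehyde dehydrogenases ALDH1A3 held 50.1 ± 0.210% at 600, 610 and 609 CPM. ALDH3A2 was second at 11.6 ± 0.152%, and ALDH1A1 held 0.0133 ± 0.0151% (chosen after its values were seen). Of 7 alcohol dehydrogenases ADH5 alone was present, at 165, 166 and 172 CPM, and the ethanol-oxidising ADH1A, ADH1B, ADH1C, ADH4 and ADH7 had no count.
Among structural families ACTG1 stood 2.66 ± 0.0229 times above ACTB per kb, at 4596, 4665 and 4561 CPM. EEF1A1 was 24.4 ± 0.275 times EEF1A2. Tubulin, pooled here over alpha, beta and gamma tubulins, was the family with the lowest leading share. TUBB held 24.5 ± 0.237% and TUBA1B 21.4 ± 0.261%.

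Lists of organ-specific metabolism each lacked some genes. Of 8 gluconeogenesis genes 4 were present (50%, beside 62.7% of coding genes), namely G6PC3, SLC37A4, PCK2 and PC. The rate-limiting PCK1 had 0, 0.123 and 0 CPM, FBP1 had 0, 0.0705 and 0 CPM, and G6PC1 had no count. Of 8 genes of the urea cycle and arginine metabolism 6 were present (75%), with ASS1 at 47.68, 49.98 and 46.70 CPM and OTC at 0. Of ketone body genes 7 of 8 were present (87.5%). The shares of the urea cycle and ketone body lists were thus above that of coding genes. HMGCS1, the cytosolic synthase of cholesterol synthesis, had 158, 167 and 160 CPM.
Every gene in the lists of growth-linked synthesis was present, beside 62.7% of coding genes. All 15 genes of folate and serine metabolism were present, with TYMS at 72.8 ± 3.12, MTHFD2 at 50.7 ± 0.552 and SHMT2 at 50.6 ± 0.738 CPM per kb. MTHFD2 and SHMT2, which work in mitochondria, lay within their SDs, and SHMT2 was 2.81 ± 0.134 times its cytosolic relative SHMT1. All 24 genes of purine and pyrimidine synthesis were present, led by IMPDH2 at 181 ± 2.45, the thymidine kinase TK1 at 142 ± 3.12 and RRM2 at 109 ± 1.84 CPM per kb. All 5 isocitrate dehydrogenases were present as well.
Of 20 cytochrome P450 genes of drug metabolism 8 were present, below the 62.7% of coding genes, with CYP4F11 at 42.8, 42.7 and 48.1 CPM and CYP2S1 at 28.4, 30.7 and 28.8 CPM. CYP2B6, CYP2C18, CYP2C19 and CYP3A7 had no count. Of 23 conjugating enzymes 14 were present (60.9%), near the share of coding genes, and GSTP1 was 38.5 ± 0.814 times GSTM4 per kb. UGT1A6, UGT2B7, UGT2B15 and SULT1B1 were at 0.

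Of 45 named long non-coding RNAs 30 were present (66.7%, beside 6.66% of all long non-coding RNA genes). These names are known because the RNAs are abundant or studied, so the share describes the list only. By CPM the nuclear paraspeckle RNA NEAT1 led with 502, 479 and 495 CPM, followed by NORAD with 455, 456 and 455 CPM. SNHG29, a host gene of small nucleolar RNAs, had 381, 357 and 363 CPM, and GAS5 had 178, 173 and 169 CPM. Per kb of the longest annotated transcript, 22743 bases for NEAT1 and 5339 for NORAD, the order changed, and NORAD was 3.94 ± 0.0988 times NEAT1. This ratio depends on those lengths, which the SD does not cover. MALAT1 had 131, 136 and 138 CPM. UCA1, first described in urothelial cancer, had 121, 115 and 124 CPM. Also among the 10 highest were SNHG1, SNHG16, TUG1 and the unnamed ENSG00000264112. CCAT2, SAMMSON, LINC-ROR and PCA3 had no count.
Of 26 small structural RNAs 2 were present. The signal recognition particle RNA RN7SL1 had 6.23, 8.47 and 8.40 CPM and RN7SL2 3.02, 7.52 and 7.59 CPM, which are near-identical copies. Library 1 was the lowest for both. RN7SK had 0.267, 0.529 and 0.435 CPM, and RNU6-1, RNU4-2, RNY1, RNY3, RNY4 and VTRNA1-1 had no count. Small-RNA genes together held 0.0115 ± 0.000358% of the counts. These RNAs are known to be abundant in all cells, so their level here cannot be read as their level in HCT116.

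Imprinted genes were present in 19 of 32 (59.4%, near the 62.7% of coding genes, though the list also holds non-coding RNAs). GNAS and PHLDA2, a placental growth regulator, led at 184 ± 0.365 and 184 ± 5.15 CPM per kb and lay within their SDs. The growth factor IGF2 had 47.7, 45.8 and 47.7 CPM, and its neighbour H19, a non-coding RNA read from the other parental copy, was 0.510 ± 0.0325 times IGF2 per kb. CDKN1C averaged 21.7 ± 1.04 CPM. NDN, MAGEL2 and SNURF had no count, and neither had PEG3, ZIM2, WT1, RTL1 or MEG8. Exons of SNURF, PEG3, ZIM2 and MEG8, and of SNRPN and MEG3 below, overlap another gene on the same strand, so their low counts are less sure. Their neighbours SNRPN and MEG3 were trace, at 0, 0 and 0.0483 CPM and at 0, 0 and 0.0645 CPM (chosen after their values were seen). In the cluster of NDN, MAGEL2 and SNURF, however, MKRN3 was present at 5.35, 6.98 and 6.27 CPM and UBE3A at 87.7, 85.5 and 87.4 CPM (both chosen after their values were seen).

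The 3 control libraries were close to each other but not identical. Between pairs of libraries 99.7 to 99.8% of 10486 genes of 10 CPM or more lay within 2-fold, and the median absolute log2 ratio was 0.06. The median squared deviation was 5.203 to 5.379 times that of counting error, so none looked like 1 library deposited again. Repeat libraries of 1 RNA can exceed counting error too, so this does not show separate cultures, and n = 3 counts libraries. The coefficient of variation (CV) of genes at 1 to 10 CPM had a median of 11.6%, at 10 to 100 CPM 4.06%, at 100 to 1000 CPM 2.01% and at 1000 CPM or more 1.25%. Counting error alone gave medians of 6.75, 2.22, 1.02 and 0.309%. The steadiest gene of 10 CPM or more was the stress-response gene IER3 at 374.2, 374.3 and 374.2 CPM, then EIF1, KRTCAP2, TIMM44, EEF1D, SF3B6, RBM5, MARS1, ENO1 and CEP250.

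**Figure D5:**
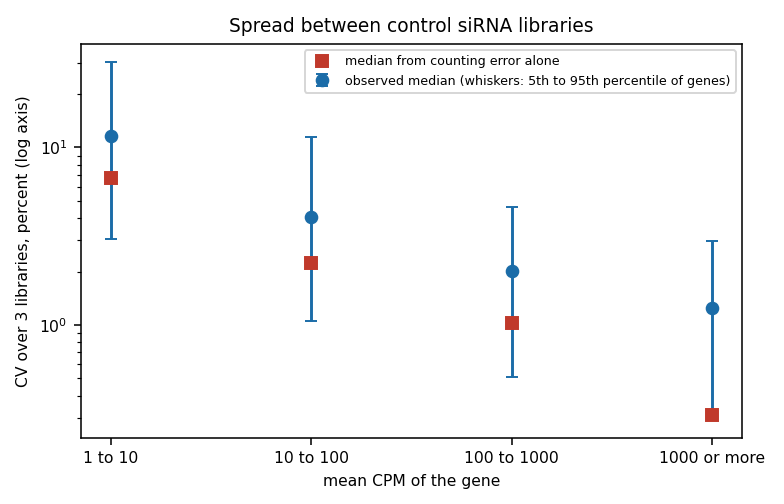
CV over the 3 control siRNA libraries (log axis) by mean CPM of the gene: observed median with the 5th to 95th percentile of genes (circles and whiskers) and the median expected from counting error (squares). The observed median is 11.6% at 1 to 10 CPM and 1.25% at 1000 CPM or more, above counting error at each level.

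Of the genes with the highest CV, 69 of 100 share exons with another gene on the same strand. The readthrough gene SENP3-EIF4A1 had 477, 150 and 15.7 CPM. EIF4A1, a helicase of translation initiation, had 250, 599 and 696 CPM, and the sums of both were 728, 749 and 712 CPM. The CV was 111% for SENP3-EIF4A1, 45.5% for EIF4A1 and 2.57% for the sum. ISY1-RAB43 had 17.8, 13.2 and 0 CPM, and its sum with ISY1 was 47.8, 41.7 and 36.7 CPM, so here the sum differed between libraries too. DUS4L-BCAP29, ENSG00000286185, ENSG00000270149, ENSG00000257390, ENSG00000285238, NBPF19 and RPL14P1 were also among the 10 of highest CV. Same-strand exon overlap was found for 69 of the 100 genes of highest CV (69%) and for 1792 of 10468 genes of 10 CPM or more (17.1%), among genes with an entry in the annotation. Overlap on the other strand was found for 41 and 41.3%. What assigned the reads between such genes was not tested.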

How the data were processed

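RNA from HCT116 cells was sequenced in 9 libraries, of which the 3 with control siRNA were used; the labels' titles and treatments set the groups, and the 6 columns of the other groups were not described. The values are raw counts by Ensembl identifier, deposited by the authors as whole numbers. Per the submitters' processing notes the build is hg19, with aligner, counter and strand not given in the sources used here. CPM was each count scaled to the library's deposited total. Depth was 56757567 to 62054716 counts, and floors of 3 counts cover counting error only, since reads without molecular identifiers are not independent molecules.

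Symbols matched 61757 of 61806 identifiers. Gene types, transcript lengths and exon overlaps came from GENCODE release 29, a newer build, used for no coordinates, and it lacked 3552 identifiers with 0.145% of the control counts. Listed symbols without a match numbered 3 (LOR, GSTT1 and CCAT1). Promoter windows, with chromosome 8 left out, came from RefSeq (GRCh38.p14), matched by symbol, 126 through an older symbol; where several starts are listed (4020 genes) the first was used.

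The 76 gene lists and the members were chosen with earlier results of these data known. Genes were named by rule: the 20 highest by CPM and by CPM per kb; in each list the 4 highest per kb and those not counted, and any member of lists of up to 12 genes or of the lists of intestinal factors, colon epithelium, drivers and HOX; present genes of other cell types; the 2 leading members of each family; the 10 highest long non-coding and small RNA genes; and the 10 highest and lowest CVs. Other names were chosen after their values were seen. Since 1 group was described, no test was made. Presence and CV were tested on simulated data. TMM factors (edgeR 4.0.16) and size factors (DESeq2 1.42.0) in R 4.3.3 served as alternatives, beside other presence levels, lengths and left-out libraries; all else used Python 3.11 with pandas. Some listed genes and 1 family are not reported here and not drawn, though counts over lists include them.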

Additional observations from a re-analysis of the deposited data

How the results depend on the processing

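The number of genes present in control siRNA cells, 14293, ranged from 13059 to 15655 under other presence levels (0.5 CPM, 2 CPM, 1 CPM per kb, or a mean of 1 CPM) and scalings, and from 14453 to 14481 with a control library left out. The list members present were 558 of 980, 488 to 575 under those levels and scalings, and 560 to 561 without 1 library. TMM and DESeq2 factors each added 1 listed gene and removed none. Counting only members with no exon overlap on the other strand left 322, because fewer genes remain. The median level was 6.41 CPM per kb with the union of exons. The median leading share of a family was 88.1% with the union of exons, 89.9% by CPM without length and 88.9 to 89.2% without 1 library. In both length settings the leader changed in 1 of 19 families, the hexokinases, to HK2. Outside the mitochondrial genome the 100 highest genes held 17.7% of counts, and 23.2 to 23.3% of all counts without 1 library. The median CV was 3.51% at 10 CPM or more, 4.72% at 1 CPM or more and 2.81 to 2.89% over 2 libraries. TATAAA stood in 1.56% of genes present at 0.5 CPM and 1.40% at 2 CPM. Without replicate 1 the B cell list had 2 present genes and without replicate 3 the myeloid list had 2, against 1 in each with all libraries. No paired analysis was possible because no test was made and a single group was described. Depth limits statements below the floor of 3 counts.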
